A study of Mus musculus with 12 samples.

Results

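The 10 genes described here encode the machinery that carries a cell through G1, the gap between mitosis and DNA replication: the D-type cyclin genes Ccnd1, Ccnd2 and Ccnd3, the E-type cyclin genes Ccne1 and Ccne2, the kinase genes Cdk4 and Cdk6, the inhibitor genes Cdkn1b and Cdkn2a, and Rb1. They were taken by symbol from a count table of 55335 genes, and each symbol matched 1 gene. All 10 were among the 16468 genes with enough counts to be tested. Polyadenylated RNA had been sequenced from a mouse embryonic stem (ES) cell line on days 0, 2, 4 and 6, with 3 libraries for each day (12 libraries). Culture is labelled alike throughout, in serum replacement medium with leukaemia inhibitory factor (LIF) on gelatin and irradiated mouse embryonic fibroblast feeders, and no genotype or treatment is named that sets the days apart. Whether the 3 libraries of a day came from separate cultures is not stated, so the p-values rest on a spread between libraries that could be purely technical.

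D-type cyclins bind CDK4 or CDK6 and, with cyclin E bound to CDK2, phosphorylate the retinoblastoma protein, which otherwise holds E2F transcription factors inactive. INK4 proteins such as p16 block CDK4 and CDK6, and CIP/KIP proteins such as p27 bind cyclin-CDK complexes. Mouse ES cells are known for a short G1, high cyclin E activity throughout the cycle and low levels of D-type cyclins, and G1 is known to lengthen when they leave the pluripotent state.

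Total counts ran from 6945900 to 13266962 per library. The 10 ES cell marker genes examined, among them Pou5f1, Nanog and Sox2, were all lower on day 6 than on day 0, and their summed level was 839 to 870 CPM on day 6, against 5640 to 5700 CPM on day 0. CPM are counts scaled to a common library total after TMM scaling, a correction for differences in RNA composition. The 12 feeder fibroblast and mesenchymal markers summed to 177 to 195 CPM on day 6, against 28.6 to 32.8 CPM on day 0, with Fap and Lum at 0 on day 0. Of the 9 with enough counts to be tested, 7 were higher and 2 lower on day 6 than on day 0. In that comparison 39.4% of all genes tested were higher and 37.5% lower. Col3a1, Col1a2 and Col1a1 made up most of the day 6 sum, at 79.5, 49.8 and 36.8 CPM, while Thy1 was at 0.555 CPM on day 6, against 11.6 CPM on day 0, and Pdgfrb at 7.72 CPM, against 9.80 CPM. On days 2 and 4 their sums were 25.6 to 27.8 and 39.4 to 44.4 CPM, and their part in the results below was not tested. In bulk RNA, fewer cells of a type and less RNA per cell cannot be told apart. Since the counting is not stated to use strand, reads from exons shared with a gene on the other strand cannot be assigned with certainty.

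Over the 4 days the D-type cyclin genes changed places: Ccnd1 and Ccnd3 fell and Ccnd2 rose. Per kb of annotated exon, Ccnd2 was the lowest of the 10 genes on day 0. It was the leading D-type cyclin gene on days 4 and 6. Ccne1 fell, Ccne2 peaked on day 4, and the inhibitor gene Cdkn1b was higher on every later day than on day 0. All 10 genes passed the F-test over the 4 days (edgeR quasi-likelihood test, adjusted p from 1.69e-25 for Ccnd3 to 6.29e-05 for Rb1), as did 89.2% of all genes tested. By steps, 7 of the 10 changed on day 2 against day 0, where 68.1% of all genes did. On day 4 against day 2, 9 changed against a background of 50.1%, and on day 6 against day 4, 7 changed against 42.9%. On that last step 4 rose and 3 fell, where 23.6% of all genes were higher and 19.3% lower. Against day 0, all 10 differed on day 4, with 73.6% of all genes, and 7 on day 6, with 76.9%. The comparisons with day 0 share the same 3 day 0 libraries.

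**Figure D1:**
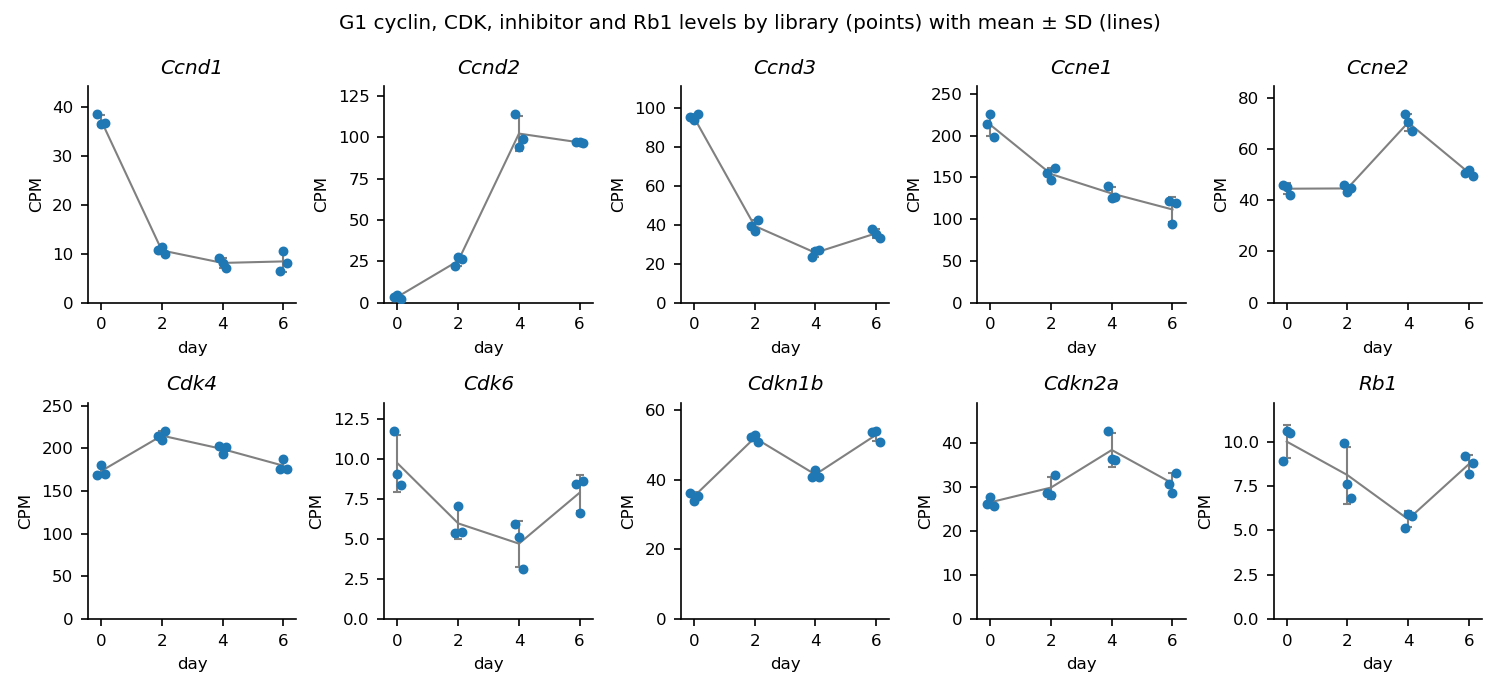
Level of each of the 10 genes in CPM (vertical axes, each from 0) by day (horizontal axes). Points are the 12 libraries and lines join the daily means with SD. Ccnd2 is at 2.28 to 4.73 CPM on day 0 and at 96.7 to 97.0 CPM on day 6, while Ccnd1 is at 36.5 to 38.4 CPM on day 0 and at 6.51 to 10.6 CPM on day 6.

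Ccnd1 (cyclin D1, ENSMUSG00000070348, chromosome 7, 144929931 to 144939925, GRCm38) is the D-type cyclin gene best known as a target of growth factor and Wnt signals. Its level was 38.4, 36.5 and 36.6 CPM in the libraries of day 0 and 10.8, 11.3 and 9.82 CPM in those of day 2. It was 9.10, 8.07 and 7.10 CPM on day 4 and 6.51, 10.6 and 8.09 CPM on day 6. Every later library lay far below every day 0 library, and day 6 overlapped both day 2 and day 4. The level on day 2 fell to 10.6 ± 0.764 CPM, against 37.2 ± 1.09 CPM on day 0 (SD, n = 3 each), 3.48-fold lower (log2 -1.80 ± 0.10 SE, edgeR adjusted p = 1.43e-18). A further fall on day 4 against day 2 was smaller (log2 -0.38 ± 0.13, adjusted p = 0.017), and it did not pass without day 2 replicate 2 (adjusted p = 0.0634), day 4 replicate 2 (adjusted p = 0.0539) or day 4 replicate 3 (adjusted p = 0.0741). Day 6 did not differ detectably from day 4 (log2 0.00, 95% interval -0.26 to 0.26, adjusted p = 1). Of its annotated exon bases, 23.4% lie opposite exons of LTO1, which itself averaged 13.5, 16.4, 18.9 and 15.7 CPM on days 0, 2, 4 and 6.

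Ccnd2 (cyclin D2, ENSMUSG00000000184, chromosome 6, 127125162 to 127152193) encodes the D-type cyclin known from ovarian granulosa cells, pancreatic beta cells and neural progenitors. Only 30, 36 and 18 reads were counted in the day 0 libraries, which came to 3.39, 4.73 and 2.28 CPM. The libraries of day 2 held 21.9, 27.5 and 26.4 CPM, those of day 4 held 113.9, 94.1 and 98.7 CPM, and those of day 6 held 97.0, 96.9 and 96.7 CPM. The first steps show no overlap, and the last 2 days overlap. Ccnd2 rose 7.28-fold on day 2 against day 0 (log2 2.86 ± 0.17, adjusted p = 1.24e-12) and 4.07-fold on day 4 against day 2 (log2 2.02 ± 0.09, adjusted p = 1.01e-14). No further change was detected on day 6 against day 4 (log2 -0.08, 95% interval -0.23 to 0.07, adjusted p = 0.404). On day 6 it was 28.0-fold above day 0 (log2 4.81 ± 0.14, adjusted p = 8.58e-19), the 355th largest change of the 16468 genes.

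Ccnd3 (cyclin D3, ENSMUSG00000034165, chromosome 17, 47505051 to 47599691), known for its role in lymphocyte and red cell precursors, dipped to day 4 and then recovered in part. Its libraries had 95.2, 93.9 and 96.8 CPM on day 0 and 39.3, 36.7 and 42.4 CPM on day 2. They had 23.3, 26.4 and 27.1 CPM on day 4 and 38.0, 35.4 and 33.4 CPM on day 6. No library of day 2, 4 or 6 reached the day 0 range, and days 2 and 6 overlapped. Ccnd3 fell 2.42-fold on day 2 against day 0 (log2 -1.28 ± 0.06, adjusted p = 1.02e-20) and 1.54-fold on day 4 against day 2 (log2 -0.63 ± 0.07, adjusted p = 3.56e-09). It then rose 1.40-fold on day 6 against day 4 (log2 0.49 ± 0.08, adjusted p = 1.70e-06), to 35.6 ± 2.30 CPM, which was 2.66-fold below day 0. Exons of Bysl lie opposite 4.11% of the exon bases of Ccnd3. Bysl itself averaged 161, 112, 94 and 69.2 CPM on days 0, 2, 4 and 6.

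Per length, taking CPM per kb of annotated exon, the shares of the D-type cyclin genes in their summed level turned over. Ccnd3 held 56.0 to 57.9% of the sum in the day 0 libraries, Ccnd1 40.8 to 42.1% and Ccnd2 1.27 to 2.65%. On day 2 Ccnd3 held 43.9 to 49.7%, Ccnd2 25.6 to 30.7% and Ccnd1 21.5 to 25.3%. By day 4 Ccnd2 held 67.9 to 72.5%, Ccnd3 15.9 to 20.5% and Ccnd1 9.99 to 11.6%, and on day 6 Ccnd2 held 62.1 to 65.0%, Ccnd3 25.1% on average and Ccnd1 8.63 to 13.6%. The sum itself was 19.0 to 19.4 CPM per kb on day 0, 9.09 to 9.72 on day 2, 14.7 to 16.7 on day 4 and 15.8 to 16.6 on day 6. The summed level was thus lowest on day 2, when Ccnd1 and Ccnd3 had already fallen and Ccnd2 had reached about 25.3 CPM of its later 102 CPM. These shares depend on the lengths used. With the longest transcript of each gene, Ccnd3 held 70.2% on day 0 and Ccnd2 57.1% on day 6, with the same leading gene on each day. No test was made on these sums over chosen genes.

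**Figure D2:**
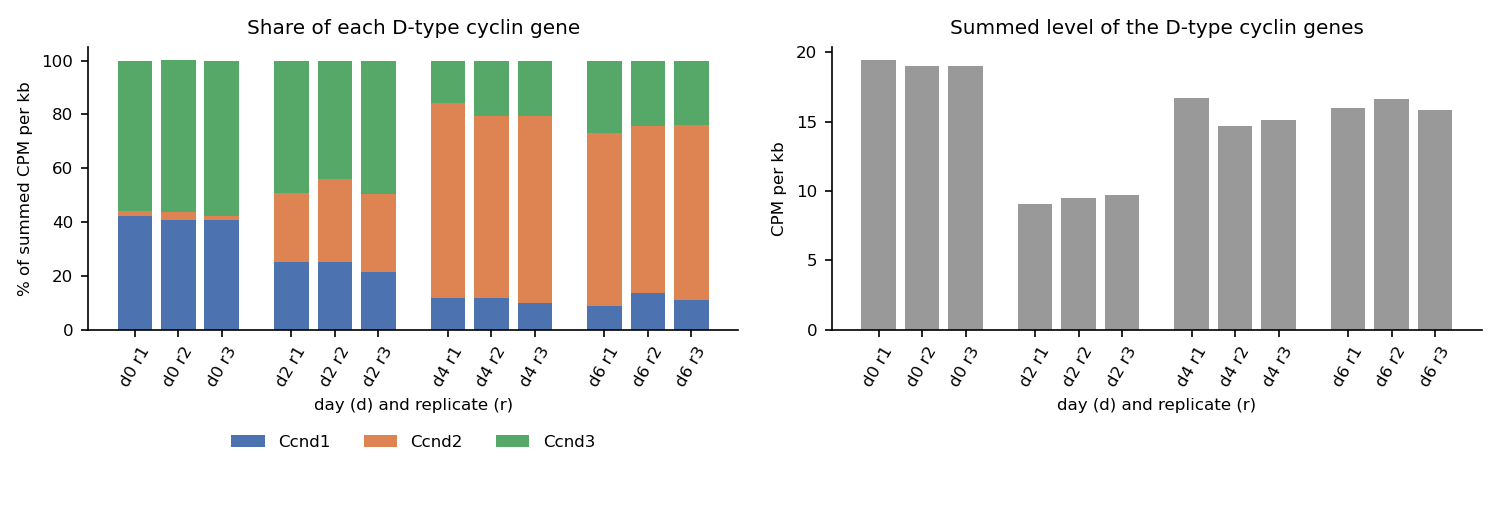
Left, the share (%) of Ccnd1, Ccnd2 and Ccnd3 in their summed CPM per kb of exon, stacked for each of the 12 libraries; right, that sum in CPM per kb. Ccnd2 takes 1.27 to 2.65% on day 0 and 62.1 to 72.5% on days 4 and 6, and the sum is lowest on day 2 at 9.09 to 9.72.

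Ccne1 (cyclin E1, ENSMUSG00000002068, chromosome 7, 38097984 to 38107534) encodes the cyclin that activates CDK2 at the entry into S phase. It had 214 to 226 CPM in day 0 replicates 1 and 2 and 199 CPM in replicate 3, and 155, 146 and 161 CPM on day 2. The libraries of day 4 had 139.8, 126 and 126 CPM, and those of day 6 had 122, 93.7 and 119 CPM. Each day lay below the one before it without overlap. Ccne1 fell 1.38-fold on day 2 against day 0 (log2 -0.47 ± 0.08, adjusted p = 0.000268), and on day 6 it was at 111.5 ± 15.5 CPM, against 213 ± 13.4 CPM on day 0, 1.90-fold lower (log2 -0.93 ± 0.09, adjusted p = 4.70e-07). The later steps stood close to the threshold. Day 4 against day 2 passed (log2 -0.23 ± 0.09, adjusted p = 0.0393), and was lost without day 0 replicate 1 (adjusted p = 0.0513), any of day 2 replicates 1, 2 and 3 (0.0898, 0.0585 and 0.126), or day 4 replicate 2 or 3 (0.131 and 0.116), and with libraries scaled by total count alone (0.0572). Day 6 against day 4 did not pass (log2 -0.22 ± 0.09, adjusted p = 0.0603), and passed without day 0 replicate 3 (adjusted p = 0.0439), day 6 replicate 1 (0.0117) or day 6 replicate 3 (0.0433). It also passed with median-ratio factors (adjusted p = 0.0473), with no filter (8.43e-05), with the replicate number as a block (0.0281) and under DESeq2 (0.0123).

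Ccne2 (cyclin E2, ENSMUSG00000028212, chromosome 4, 11191351 to 11204779), its paralog with the same partner kinase, had another course. It was at 46.0, 45.3 and 42.1 CPM on day 0, at 45.9, 43.1 and 44.8 CPM on day 2, at 73.6, 70.4 and 67.0 CPM on day 4 and at 50.8, 51.7 and 49.6 CPM on day 6. Day 4 stood clear of the other days, and days 0 and 2 overlapped fully. Day 2 did not differ detectably from day 0 (log2 0.00, 95% interval -0.12 to 0.13, adjusted p = 0.972). Ccne2 rose 1.58-fold on day 4 against day 2 (log2 0.66 ± 0.06, adjusted p = 1.54e-12) and fell 1.39-fold on day 6 against day 4 (log2 -0.48 ± 0.06, adjusted p = 9.69e-09). On day 6 it stayed 1.14-fold above day 0 (log2 0.19 ± 0.06, adjusted p = 0.0067), a call lost without day 0 replicate 3 (adjusted p = 0.0539). Ccne1 held 85.9 to 86.7% of the summed E-type level per kb on day 0, and 70.1 to 71.4% on day 4 and 70.4 to 75.9% on day 6. Of the exon bases of Ccne2, 17.4% lie opposite exons of Ints8, which averaged 44.0 CPM on day 4, against 46.0 CPM on day 2.

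Cdk4 (ENSMUSG00000006728, chromosome 10, 127063534 to 127067920) encodes the main catalytic partner of the D-type cyclins. The promoter window from RefSeq (GRCm38.p6, 250 bases up to the base before the gene's start) is shown because it holds 4 copies of the E-box CACGTG, the site that MYC family proteins are known to bind, and MYC is known to act on CDK4 in human cells. Capitals mark the E-boxes, which read the same on both strands and overlap no other motif searched, in the plus-strand window chr10:127063285-127063534.
Cdk4 promoter: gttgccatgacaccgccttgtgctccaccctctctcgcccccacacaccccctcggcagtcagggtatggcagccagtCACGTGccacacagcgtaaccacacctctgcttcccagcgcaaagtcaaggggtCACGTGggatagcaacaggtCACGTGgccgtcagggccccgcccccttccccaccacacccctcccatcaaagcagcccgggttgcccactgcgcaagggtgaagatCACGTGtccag
Of 32807 windows of the same length, 6.02% held at least 1 such E-box and 0.0213% held 4 or more. The match describes the letters and does not show binding.

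Cdk4 was at 168.9, 181 and 170.5 CPM on day 0 and at 215, 209.7 and 221 CPM on day 2. It was at 203, 194 and 201 CPM on day 4 and at 176, 187 and 176 CPM on day 6. All day 2 and day 4 libraries lay above the day 0 range, and day 6 overlapped day 0. Cdk4 rose 1.24-fold on day 2 against day 0 (log2 0.31 ± 0.04, adjusted p = 1.02e-07) and fell by 0.15 ± 0.04 on the log2 scale on day 6 against day 4 (adjusted p = 0.00623). The fall on day 4 against day 2 was 0.11 on the log2 scale (log2 -0.11 ± 0.04, adjusted p = 0.0343) and was lost without day 2 replicate 1 (adjusted p = 0.0676), day 2 replicate 3 (0.111) or day 4 replicate 2 (0.143). It was also lost with median-ratio factors (adjusted p = 0.0542), with no filter (0.0627), in a fit to the 6 libraries (0.0579) and under DESeq2 (0.103), and it missed a threshold of 0.01. Day 6 did not pass against day 0 (log2 0.05, 95% interval -0.04 to 0.14, adjusted p = 0.301), but did with libraries scaled by total count alone (log2 0.16, adjusted p = 0.00238). Over the same days Mycn, the most abundant MYC family gene by CPM here, averaged 214, 42.0, 94.3 and 114 CPM on days 0, 2, 4 and 6. A link between Mycn and Cdk4 was not tested. Of the exon bases of Cdk4, 19.7% lie opposite exons of Tspan31. Tspan31 itself averaged 33.0, 45.7, 63.3 and 65.8 CPM on days 0, 2, 4 and 6.

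Cdk6 (ENSMUSG00000040274, chromosome 5, 3341485 to 3531008), the paralog of Cdk4 with a large role in blood cells, was near the bottom of the range. Its libraries held 104, 69 and 66 reads on day 0, 71, 88 and 60 on day 2, 61, 53 and 22 on day 4, and 113, 61 and 82 on day 6. In CPM these were 11.7, 9.06 and 8.35 on day 0, 5.38, 7.07 and 5.46 on day 2, 5.90, 5.09 and 3.12 on day 4, and 8.46, 6.59 and 8.62 on day 6. Day 2 and day 4 lay below day 0, and day 6 overlapped it. Cdk6 fell 1.64-fold on day 2 against day 0 (log2 -0.71 ± 0.16, adjusted p = 0.000257) and rose 1.63-fold on day 6 against day 4 (log2 0.70 ± 0.18, adjusted p = 0.00163). Day 4 did not pass against day 2 (log2 -0.29, 95% interval -0.67 to 0.08, adjusted p = 0.193), nor day 6 against day 0 (log2 -0.30, 95% interval -0.62 to 0.02, adjusted p = 0.0847), which passed without day 0 replicate 3 (adjusted p = 0.0388). Per kb of exon, Cdk4 stood 61.9 to 87.9 times above Cdk6 on day 0, 128 to 174 times on day 2, 148 to 277 times on day 4 and 88.0 to 122 times on day 6, so Cdk4 was the far more abundant mRNA in every library.

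Cdkn1b (p27, ENSMUSG00000003031, chromosome 6, 134920401 to 134925513) encodes a CIP/KIP inhibitor that is also controlled through its degradation, which RNA does not show. Its window (plus strand, chr6:134920151-134920400) is printed because human p27 promoter activity is known to depend on CCAAT boxes bound by NF-Y. Capitals mark CCAAT on the strand shown; the other strand held none.
Cdkn1b promoter: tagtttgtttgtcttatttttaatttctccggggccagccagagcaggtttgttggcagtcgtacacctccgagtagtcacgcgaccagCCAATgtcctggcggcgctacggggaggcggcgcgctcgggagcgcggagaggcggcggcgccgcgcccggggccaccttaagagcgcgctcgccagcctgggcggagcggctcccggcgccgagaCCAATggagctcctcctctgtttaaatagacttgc
Such boxes are common: 33.8% of the 32807 windows held at least 1 and 10.1% held 2 or more, on either strand.

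Cdkn1b went up, down and up again. It was at 36.2, 33.9 and 35.4 CPM on day 0, at 52.3, 52.8 and 50.8 CPM on day 2, at 40.7, 42.8 and 40.9 CPM on day 4 and at 53.7, 54.0 and 50.8 CPM on day 6. Days 2 and 6 overlapped and stood above day 4, which stood above day 0. Cdkn1b rose 1.48-fold on day 2 against day 0 (log2 0.56 ± 0.06, adjusted p = 3.62e-10), fell on day 4 against day 2 (log2 -0.33 ± 0.06, adjusted p = 1.83e-05) and rose 1.27-fold on day 6 against day 4 (log2 0.35 ± 0.06, adjusted p = 1.07e-05). On day 6 it was at 52.8 ± 1.80 CPM, against 35.2 ± 1.17 CPM on day 0 (log2 0.59 ± 0.06, adjusted p = 1.15e-10). These 4 calls held without any one of the 12 libraries.

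Cdkn2a (ENSMUSG00000044303, chromosome 4, 89274471 to 89294653) encodes the INK4 inhibitor p16 and, from a separate upstream first exon and in another reading frame, p19ARF, which stabilises p53 by binding MDM2. Gene counts add both transcripts, so the values below do not say which was present. The windows before both RefSeq starts, on the minus strand, are shown to set them side by side, with capitals for the E2F words TTTCCCGC, TTTCGCGC, TTTGCCGC and TTTGGCGC on either strand. Arf is known as an E2F target in mouse and human cells. The upstream window is chr4:89294620-89294869 and the downstream one chr4:89282193-89282442.
Upstream start: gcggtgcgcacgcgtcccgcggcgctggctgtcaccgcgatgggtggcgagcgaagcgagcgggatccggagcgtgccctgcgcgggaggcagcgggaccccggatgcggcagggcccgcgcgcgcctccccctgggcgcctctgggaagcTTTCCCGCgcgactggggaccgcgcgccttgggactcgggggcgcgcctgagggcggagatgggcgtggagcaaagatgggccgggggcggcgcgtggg
Downstream start: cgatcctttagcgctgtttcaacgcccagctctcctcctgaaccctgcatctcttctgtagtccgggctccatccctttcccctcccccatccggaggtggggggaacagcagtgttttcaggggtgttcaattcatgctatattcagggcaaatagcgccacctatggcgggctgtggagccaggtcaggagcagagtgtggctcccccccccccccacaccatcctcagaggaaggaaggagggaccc
The upstream window held 1 E2F word, 99 bases before the start, and the downstream window held none of these letters; 1.86% of the 32807 windows held at least 1.

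Cdkn2a was at 26.1, 27.8 and 25.8 CPM on day 0, at 28.7, 28.3 and 32.8 CPM on day 2, at 42.9, 36.4 and 36.2 CPM on day 4 and at 30.7, 28.6 and 33.3 CPM on day 6. Day 4 stood above the other days, and days 2 and 6 overlapped. Cdkn2a rose 1.29-fold on day 4 against day 2 (log2 0.37 ± 0.08, adjusted p = 9.46e-05) and fell on day 6 against day 4 (log2 -0.32 ± 0.08, adjusted p = 0.000831). The day 2 libraries all lay above those of day 0, but the difference did not pass (log2 0.17 ± 0.08, adjusted p = 0.073), except without day 2 replicate 2 (adjusted p = 0.0404), with libraries scaled by total count alone (0.00204), with no filter (0.0211) or in a fit to the 6 libraries (0.0497). Day 6 was 1.16-fold above day 0 (log2 0.22 ± 0.09, adjusted p = 0.0198), a call lost without day 0 replicate 1 (adjusted p = 0.0645), day 0 replicate 3 (0.0684) or day 6 replicate 3 (0.0955) and under DESeq2 (0.0612).

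Rb1 (ENSMUSG00000022105, chromosome 14, 73183673 to 73325822) encodes the retinoblastoma protein, the substrate on which the D- and E-type cyclin kinases converge. Its level was 8.93, 10.6 and 10.5 CPM on day 0, 9.93, 7.64 and 6.82 CPM on day 2, 5.13, 5.96 and 5.82 CPM on day 4 and 9.20, 8.21 and 8.83 CPM on day 6. Day 4 lay below every other library, and days 0, 2 and 6 overlapped. Rb1 fell 1.46-fold on day 4 against day 2 (log2 -0.54 ± 0.15, adjusted p = 0.00255), which was lost without day 2 replicate 1 (adjusted p = 0.058), and rose 1.56-fold on day 6 against day 4 (log2 0.65 ± 0.15, adjusted p = 0.000624). Day 2 did not pass against day 0 (log2 -0.28, 95% interval -0.56 to -0.01, adjusted p = 0.0637), but did without day 0 replicate 1 (adjusted p = 0.0372) or day 2 replicate 1 (0.00651), and day 6 did not pass (log2 -0.18, 95% interval -0.46 to 0.10, adjusted p = 0.226). Of its exon bases, 8.11% lie opposite exons of Rcbtb2 and 6.78% opposite exons of Lpar6. Rcbtb2 itself averaged 3.84, 21.1, 27.1 and 26.5 CPM on days 0, 2, 4 and 6. Lpar6 averaged 1.19, 6.76, 4.71 and 5.10 CPM on the same days.

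**Figure D3:**
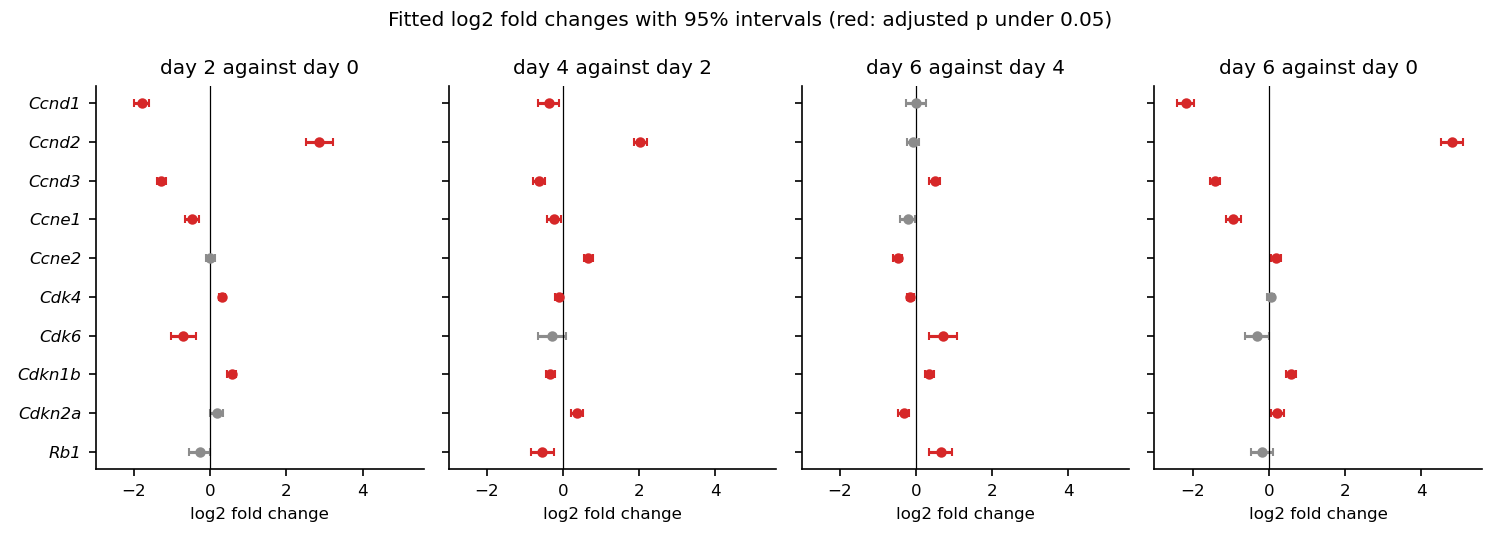
Fitted log2 fold changes of the 10 genes (horizontal axes) with 95% intervals in the 3 successive steps and on day 6 against day 0; red marks adjusted p under 0.05. Ccnd2 has the largest value of the 10 on day 6 against day 0, at 4.81, and Ccnd1 the lowest, at -2.18.

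Levels were compared between genes per kb of annotated exon, a scale on which long annotated ends lower a gene's value. On day 0 Ccne1 led with 80.0 ± 5.03 CPM per kb (SD, n = 3), followed by Cdk4 at 53.4 ± 2.03, Cdkn2a at 22.7 ± 0.932, Ccne2 at 12.7 ± 0.586 and Ccnd3 at 10.9 ± 0.166. Ccnd1 and Cdkn1b came next at 7.89 ± 0.232 and 7.72 ± 0.257 and overlapped, and Rb1 at 1.67 ± 0.158, Cdk6 at 0.695 ± 0.128 and Ccnd2 at 0.368 ± 0.130 closed the order. Cyclin E1 mRNA stood above that of each D-type cyclin in every library of day 0, and likewise on each later day. On day 6 Ccne1 was at 35.2 CPM per kb or more, and Ccnd2, the highest D-type cyclin gene, at 10.3 or less. On day 2 Cdk4 led with 66.2 CPM per kb and Ccne1 followed with 57.8, and Cdk4 stayed first on days 4 and 6, at 61.4 and 55.4. Ccnd2 stood below Ccnd3 on day 2, at 2.68 CPM per kb and overlapping Ccnd1, and stood between Ccne2 and Cdkn1b on day 4, at 10.9, and between Cdkn1b and Ccnd3 on day 6, at 10.3. On day 6 Ccnd1 at 1.78 overlapped Rb1 at 1.45, and Cdk6 was last at 0.564. Other neighbours in the order did not overlap on any day on this scale. The order depends on the lengths used. With the longest transcript as length, Ccne1 on day 0 and Cdk4 on the later days still led. On day 0 Ccnd3, at 24.33 CPM per kb or more, then stood above Ccne2, at 15.3 or less. Ccnd2 in day 0 replicate 2, at 0.7466, lay above Cdk6 in day 0 replicate 3, at 0.7248. On day 6 Ccnd2, at 15.28 or more, stood above Cdkn1b, at 11.86 or less.

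**Figure D4:**
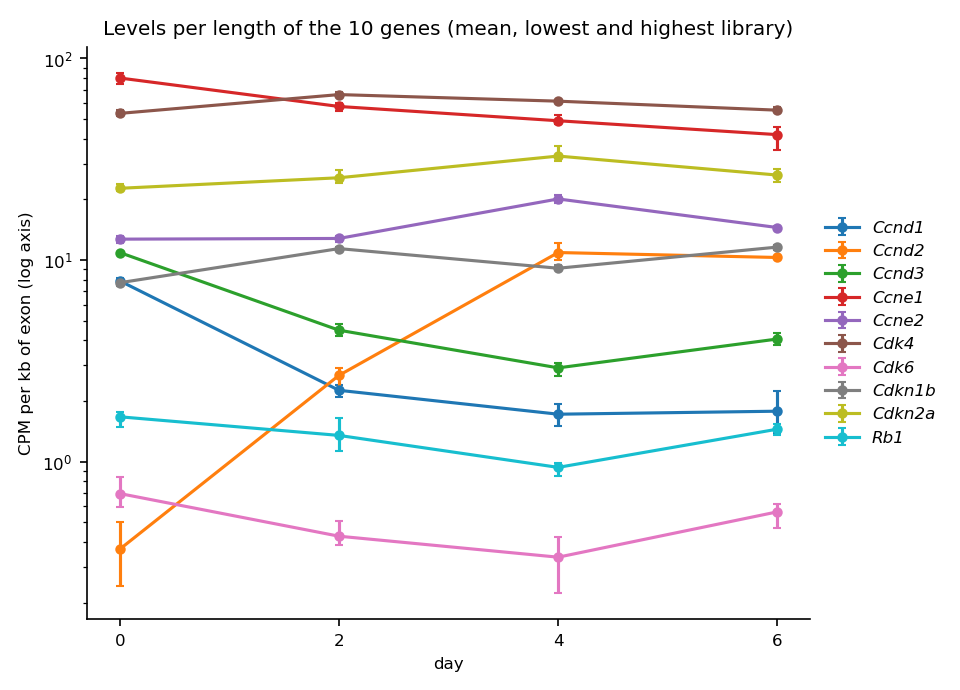
Mean level of the 10 genes in CPM per kb of exon (vertical log axis) by day, with bars from the lowest to the highest library. Ccnd2 is last at 0.368 on day 0 and above Ccnd3 at 10.3 on day 6, and Cdk4 takes the first place from Ccne1 on day 2.

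Other inhibitor genes were mostly higher on the later days. Of 6 tested, 4 rose and 1 fell on day 6 against day 0 (median log2 0.92, against 0.02 over all genes), where 39.4% of all genes were higher and 37.5% lower. Cdkn1c (p57, an imprinted CIP/KIP inhibitor) averaged 2.04, 4.74, 21.1 and 55.5 CPM on days 0, 2, 4 and 6 and was higher on day 6 than on day 0 by a log2 of 4.74. Cdkn2b (p15), which adjoins Cdkn2a on chromosome 4, averaged 5.05, 5.84, 13.3 and 18.2 CPM, with a log2 of 1.84 on day 6 against day 0. It rose by 0.43 on the log2 scale on day 6 against day 4. Cdkn1a (p21, the p53-induced inhibitor) was the 1 gene of the list that fell, with 109, 29.7, 23.9 and 37.1 CPM and a log2 of -1.55 on day 6 against day 0.

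Genes on either side of the retinoblastoma step fell more often than they rose. Among 12 other pocket protein, E2F and DP genes, 3 rose and 7 fell on day 2 against day 0 (median log2 -0.69, against 0.02 over all genes), with 34.9% of all genes higher and 33.2% lower. Over all genes 5743 of the 11216 changed were higher on day 2, and with libraries scaled by total count alone 7053 of 11465 were. Tfdp1, the common E2F partner, averaged 209, 128, 131 and 112 CPM, and E2f4, a repressor E2F of resting cells, 154, 96.7, 106 and 103 CPM, while E2f6, a repressor that does not bind pocket proteins, averaged 22.9, 43.8, 50.1 and 54.8 CPM. Among 20 E2F target genes of DNA replication, 15 fell and 3 rose on day 2, and 18 fell and 1 rose on day 6 (median log2 -0.61 on day 6), where 39.4% of all genes were higher than on day 0 and 37.5% lower. Rrm2, a ribonucleotide reductase subunit gene, had a log2 of -1.53 on day 6 against day 0, and Pola1, of DNA polymerase alpha, one of -1.19. Of 7 genes of MuvB and its MYB partners, which switch cell cycle genes on and off, 1 rose and 4 fell on day 6, beside the same 39.4% and 37.5% of all genes. Mybl2 was at 272 CPM on day 6, against 644 CPM on day 0, Mybl1 at 16.3 against 44.9 CPM and Rbbp4 at 169 against 273 CPM.

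Of 10 genes of CDK1, CDK2, cyclins A and B, CDC25 and Wee1, 2 rose and 3 fell on day 2 against day 0. On that step 34.9% of all genes were higher and 33.2% lower. On day 4 against day 2, 1 of the 10 rose and 7 fell, where 25.3% of all genes were higher and 24.8% lower. Ccnb2 and Ccnb1, the mitotic cyclin genes, had log2 values of -0.86 and -0.46 on day 6 against day 0, and Ccna1, the germline cyclin A gene, fell by 1.99 on the log2 scale to 1.24 CPM. Of the CDK-activating kinase genes, Cdk7 rose by 0.44 on the log2 scale on day 2 against day 0, Ccnh fell by 0.27 and Mnat1 did not pass (log2 0.05). Of 15 subunit genes of ubiquitin ligases that act on G1 cyclins and p27, 9 rose and 3 fell on day 2 against day 0 (median log2 0.29), where 34.9% of all genes were higher and 33.2% lower. Cul1, the SCF scaffold gene, averaged 59.8, 140 and 120 CPM on days 0, 2 and 4 and 103 CPM on day 6. Skp1a, the SCF adaptor gene, and Ddb1, of the CUL4 ligases, fell by 0.76 and 0.44 on the log2 scale on day 6 against day 0.

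Upstream of D-type cyclins and p27, 5 of 20 genes of the signalling and transcription factor list rose and 13 fell on day 2 against day 0 (median log2 -0.48, against 0.02 over all genes), with 34.9% of all genes higher and 33.2% lower. Etv4 and Etv5, ETS factor genes that respond to FGF and ERK signals, fell on each step, to 1.19 and 3.41 CPM on day 6, against 40.8 and 59.2 CPM on day 0. Mycn fell by 2.35 on the log2 scale on day 2 against day 0 and rose by 1.17 on day 4 against day 2.

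**Figure D5:**
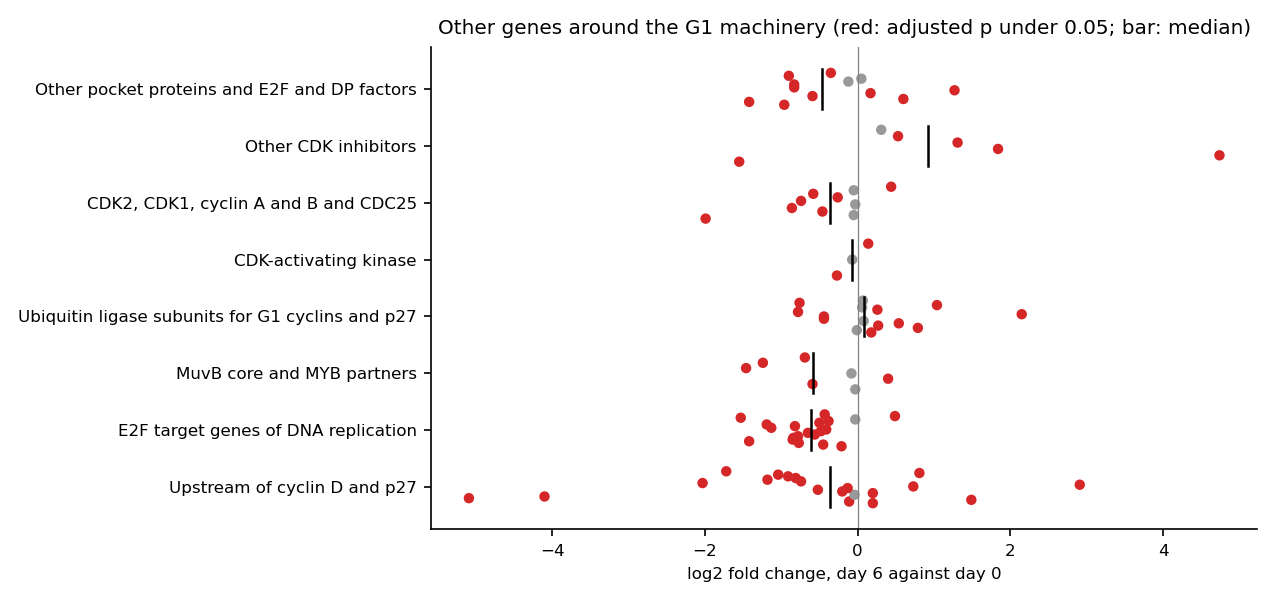
Log2 fold change on day 6 against day 0 (horizontal axis) of each tested gene of 8 lists around the G1 machinery; red marks adjusted p under 0.05 and bars the list medians. The 20 E2F targets lie mostly below 0, and the other inhibitor genes mostly above it, with Cdkn1a at -1.55.

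Other genes with the most similar courses were named by Pearson's r of log2 CPM over the 12 libraries, as a description: the libraries fall into 4 days, so any gene with the same order of days scores high. For Ccnd2 they were Igdcc3, Sypl and Rai1 (r = 0.9963, 0.9944 and 0.9942), of which Igdcc3 averaged 11.6, 36.4, 71.0 and 72.9 CPM on days 0, 2, 4 and 6. For Ccnd1 they were Btbd19, Synm and Usp10 (0.9923, 0.9919 and 0.9886), and for Ccnd3 Cdh1, which encodes E-cadherin, Pak4 and Igsf8 (0.9957, 0.9954 and 0.9948). Cdh1 averaged 470, 249, 186 and 231 CPM, with the same dip on day 4 as Ccnd3. Those of Ccne1 were Tomm20, Bid and Pbx4 (0.983, 0.9824 and 0.9793), and those of Ccne2 were Trappc6b, Entr1 and Fbxo48 (0.9701, 0.9607 and 0.9575). For Cdk4 they were Ankrd13c, Ptrhd1 and Gse1 (0.973, 0.9684 and 0.9633), and for Cdkn1b Zfp91, Fam129a and Cdc42bpb (0.9763, 0.976 and 0.9756). Matches were looser for the other 3 genes, with Atpif1 closest to Cdk6 (0.9345), Psmb7 to Cdkn2a (0.9404) and Ppp1r15b to Rb1 (0.9414), ahead of Zfp383 and Slc25a20 (0.9132 and 0.9044), Il17rd and Rnaseh2c (0.9285 and 0.9131), and Pask and Pfkm (0.9369 and 0.9293).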

How the data were processed

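Raw counts per gene were deposited for 12 libraries of polyadenylated RNA. The kit was a SMARTER mRNA-Seq one, per the labels, and the submitters' processing notes name FastQC 0.11.7, HISAT2 2.1.0, featureCounts 2.0.1, DESeq2 and mm10, with no role or order. Strandedness and the annotation release are not given in the sources used here. Coordinates, exon overlaps and lengths come from GENCODE M21 (GRCm38), to which 55154 of 55335 gene IDs matched. Promoter windows are from RefSeq (GRCm38.p6), which held 6 of the 10 genes.

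Counts were filtered (filterByExpr), scaled by TMM and fitted in edgeR 4.0.16 (R 4.3.3) with a coefficient per day over all 12 libraries. Changed means p under 0.05 in the two-sided quasi-likelihood test after Benjamini-Hochberg adjustment over all 16468 genes. SE were recovered from the test statistic. The procedure was tested on simulated data. Replicates differed beyond sampling noise (chi-square divided by its degrees of freedom 1.51 to 3.80). Genes and lists were chosen with earlier results of these data known. From each list, up to 3 genes with the smallest F-test p and at least 5 CPM on their highest day were named, except 1 that is not reported here; Cdkn2b's neighbour position, Mycn beside Cdk4 and the genes on the other strand were added after values were seen. For likeness, 3 genes per member were taken, passing over clone-type symbols. Alternatives were other scalings, filters, DESeq2 1.42.0, a fit per pair of days, a replicate block, a stricter threshold, totals without Gm42418 and mitochondrial genes, and each library left out. Figures used matplotlib 3.10.9.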

Additional observations from a re-analysis of the deposited data

How the results depend on the processing

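Of 1050 fold changes of single genes recomputed under alternatives, 56 changed direction or side of the threshold. Counts of the 10 genes called, over all alternatives, were 7 to 8 on day 2 against day 0, 6 to 9 on day 4 against day 2, 7 to 8 on day 6 against day 4, 10 on day 4 against day 0 and 6 to 8 on day 6 against day 0. Values near 0 turned sign. Ccne2 on day 2 against day 0 had a log2 of -0.005 with median-ratio factors and with DESeq2, and -0.036 to 0.030 with a library left out. Ccnd1 on day 6 against day 4 was at 0.007 with the replicate block, 0.008 with DESeq2, 0.000 with at least 1 CPM in 3 libraries, and -0.188 to 0.186 with a library left out. Ccnd2 on that step ran from -0.143 to 0.009 with a library left out. Library size alone put the median log2 of all genes on day 2 against day 0 at 0.149, against 0.017 with TMM. Same-numbered libraries did not deviate together (r -0.038 to 0.034 over 18 pairs; 4 of 12 libraries were closest to their own number), and the replicate block made Ccne1 pass on day 6 against day 4 (adjusted p = 0.0281) and changed no other call. With the longest transcript as length, Ccnd1 held 28.3, 16.7, 8.66 and 8.39% of the D-type sum on days 0, 2, 4 and 6, Ccnd2 23.4, 64.6 and 57.1% on days 2, 4 and 6, and Ccnd3 70.2, 59.9, 26.7 and 34.5%, and Cdk4 stood 103, 206 and 130 times above Cdk6 on days 0, 2 and 6. Depth limits Cdk6, Rb1, day 0 Ccnd2 and Ccnd1 on days 4 and 6, all within 18 to 131 reads per library.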
